A study of Rattus norvegicus with 48 samples.

Results

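Slc29a1, Ehd4, Nostrin and Sh3bp5 are 4 of the 32285 gene identifiers counted in rat lung. They were selected on their low read counts in exposed lungs 1 day after an inhalation exposure, so the day 1 difference describes the choice and is no finding. Each has 1 identifier, ENSRNOG00000019752 for Slc29a1, ENSRNOG00000007584 for Ehd4, ENSRNOG00000006611 for Nostrin and ENSRNOG00000052391 for Sh3bp5. All 4 passed the filter on low counts at each day. Lungs came from healthy male Sprague-Dawley rats that breathed, in whole-body chambers, 30 mg/m3 fracking sand dust (FSD) together with 1 mg/m3 diesel exhaust particles (DEP), or filtered air, for 6 hours a day over 4 days. Fracking sand dust is a silica-bearing dust released when proppant sand is moved and blended during hydraulic fracturing. The 6 groups were exposed and air lungs at day 1, exposed and air lungs at day 7, and exposed and air lungs at day 27 after exposure, with 8 libraries each. Each library was made from a piece of lung, and no library used here had the dust or the diesel particles alone.

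The inner lining of blood vessels, the endothelium, makes up much of the thin wall between air and blood in the lung. Its cells take up adenosine and other nucleosides from plasma, return internalised receptors to the surface through recycling endosomes, and make nitric oxide with an enzyme, eNOS (Nos3), that sits at caveolae. Slc29a1 encodes ENT1, a transporter that lets nucleosides, adenosine among them, cross the plasma membrane down their gradient. Ehd4 encodes an ATPase with an EH domain that acts on membranes of the endocytic recycling route. Nostrin encodes an F-BAR protein that binds eNOS and promotes its removal from the plasma membrane. Sh3bp5 encodes SAB, a docking protein for the kinase JNK on the outer mitochondrial membrane that also activates the small GTPase Rab11, a regulator of recycling endosomes. Slc29a1, Ehd4 and Sh3bp5 are also used outside the endothelium, so "endothelial" describes where the genes are known to act and not where their reads came from in these whole-lung libraries.

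The 250 bases before the annotated transcription start are shown for the members with an entry in the RefSeq promoter table of build GRCr8, 3 of 4 members, because the genes were grouped for moving the same way at day 1. They lie at chr9:22896849-22897098 on the plus strand for Slc29a1, at chr3:127575764-127576013 on the minus strand for Ehd4 and at chr16:6654712-6654961 on the minus strand for Sh3bp5. Each runs 5′ to 3′ along the gene, and capitals mark GGGCGG (the GC box) and CCAAT on either strand. The counts were made on another build, Rnor_6.0.
Slc29a1: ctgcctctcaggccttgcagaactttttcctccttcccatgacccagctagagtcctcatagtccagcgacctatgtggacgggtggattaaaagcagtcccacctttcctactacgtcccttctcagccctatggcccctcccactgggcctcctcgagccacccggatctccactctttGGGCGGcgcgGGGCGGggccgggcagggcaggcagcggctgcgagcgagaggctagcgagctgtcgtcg
Ehd4: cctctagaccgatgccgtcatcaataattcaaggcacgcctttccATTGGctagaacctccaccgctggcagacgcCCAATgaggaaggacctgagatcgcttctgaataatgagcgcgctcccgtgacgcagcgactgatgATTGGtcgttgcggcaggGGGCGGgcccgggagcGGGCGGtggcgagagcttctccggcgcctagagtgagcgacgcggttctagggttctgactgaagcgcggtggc
Sh3bp5: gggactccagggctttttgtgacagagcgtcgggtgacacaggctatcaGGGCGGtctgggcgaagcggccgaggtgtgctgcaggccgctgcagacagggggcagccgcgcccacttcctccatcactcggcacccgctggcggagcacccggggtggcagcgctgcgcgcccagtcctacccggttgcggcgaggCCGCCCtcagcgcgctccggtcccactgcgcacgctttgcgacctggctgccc

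All 3 stretches were rich in G and C, at 63.6% for Slc29a1, 62% for Ehd4 and 72% for Sh3bp5, against a median of 51.2% over the 33469 promoters of the table. GGGCGG was present 2 times in each of the 3, and 30.5% of all promoters held at least 1 copy. CCAAT, held by 34.0% of all promoters, was present 3 times before Ehd4 and in neither of the other two. TATAAA (12.9% of all promoters), the forkhead letters TGTTTAC (3.21%) and the AP-1 letters TGANTCA (6.34%) were in none of the 3 windows. AGGAAG, the core of ETS sites (29.5%), and GCGTG, the core bound by the dioxin receptor (25.9%), each occurred 1 time before Ehd4 and 1 time before Sh3bp5. TGGGAA, read by RBPJ (22.1%), occurred 1 time before Slc29a1. Both strands were searched, each motif was counted by itself so that matches of different motifs may overlap, and a match is a description of the letters and not of a bound site.

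Expected counts per library summed to between 9445687 and 14400337, with a median of 12004528. Members had between 1018 and 9252 counts per library, so counting error was smaller than the spread between libraries. Levels below are CPM, counts scaled to the library total with factors set over all 48 libraries, and are not divided by transcript length, so they compare libraries and not genes. Of the pairs of libraries within groups 4 were close, the exposed pair 1 and 4 at day 1, the exposed pair 3 and 6 and the air pair 1 and 4 at day 7, and the air pair 3 and 6 at day 27. Their squared difference in counts, as a median over genes, was 1.44 to 1.67 times that of counting noise alone. In the other 164 pairs it was at least 2.42 times. Means, SD and correlations take the average of such a pair as 1 library, so those groups have n = 7, which is not a count of animals. The labels give each library of these pairs its own animal number, and why the pairs were close was not tested. The cut between close and other pairs was drawn at the largest relative step among the closest of these same values. The main edgeR fits kept both libraries of a pair apart, so their SE, intervals and p take 8 libraries per group as separate animals.

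At day 1, on which the genes were chosen, all 4 were lower in exposed lungs. Slc29a1 lay between 211.3 and 260.4 CPM in exposed lungs (median 235.9), against 259.98 to 314.0 CPM in air lungs (median 294.02). Ehd4 lay between 509 and 562 CPM in exposed lungs (median 541), against 576 to 637 CPM in air lungs (median 621). Nostrin ran from 152 to 192 CPM in exposed lungs (median 164), against 182 to 211 CPM in air lungs (median 196). Sh3bp5 ran from 87.6 to 106 CPM in exposed lungs (median 94.6), against 109 to 124 CPM in air lungs (median 114). For Ehd4 and Sh3bp5 the groups did not overlap, a pattern that 0.0699% of the 14314 genes tested showed in this direction. For Slc29a1 and Nostrin 7 of 8 exposed libraries lay below every air library, a pattern whose share over all genes was not counted.

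As log2 fold changes of exposed over air lungs (edgeR, SE), the day 1 values were -0.30 ± 0.048 for Slc29a1, -0.27 ± 0.044 for Sh3bp5, -0.23 ± 0.045 for Nostrin and -0.20 ± 0.035 for Ehd4. At an adjusted p under 0.05 edgeR called 0.0279% of genes at day 1, 4 in all and each lower in exposed lungs. Slc29a1, Sh3bp5 and Ehd4 were among them. As the members were chosen on this contrast, their calls restate the choice and are no finding. Of the members called, Ehd4 had the smallest fold change, and Nostrin, with a fold change between those of Sh3bp5 and Ehd4, was not called. The other called gene, the endothelial Notch ligand Dll4, averaged 123 ± 12.7 CPM in exposed lungs (SD, n = 7) and 167 ± 19.6 CPM in air lungs (SD, n = 8). With the closest pair of exposed libraries summed into 1, edgeR called 0 of 14372 genes at day 1, with 1005 at an unadjusted p under 0.05, against 1241 with the pair kept apart. In bulk lung, fewer cells of a type and less RNA per cell cannot be told apart.

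**Figure D1:**
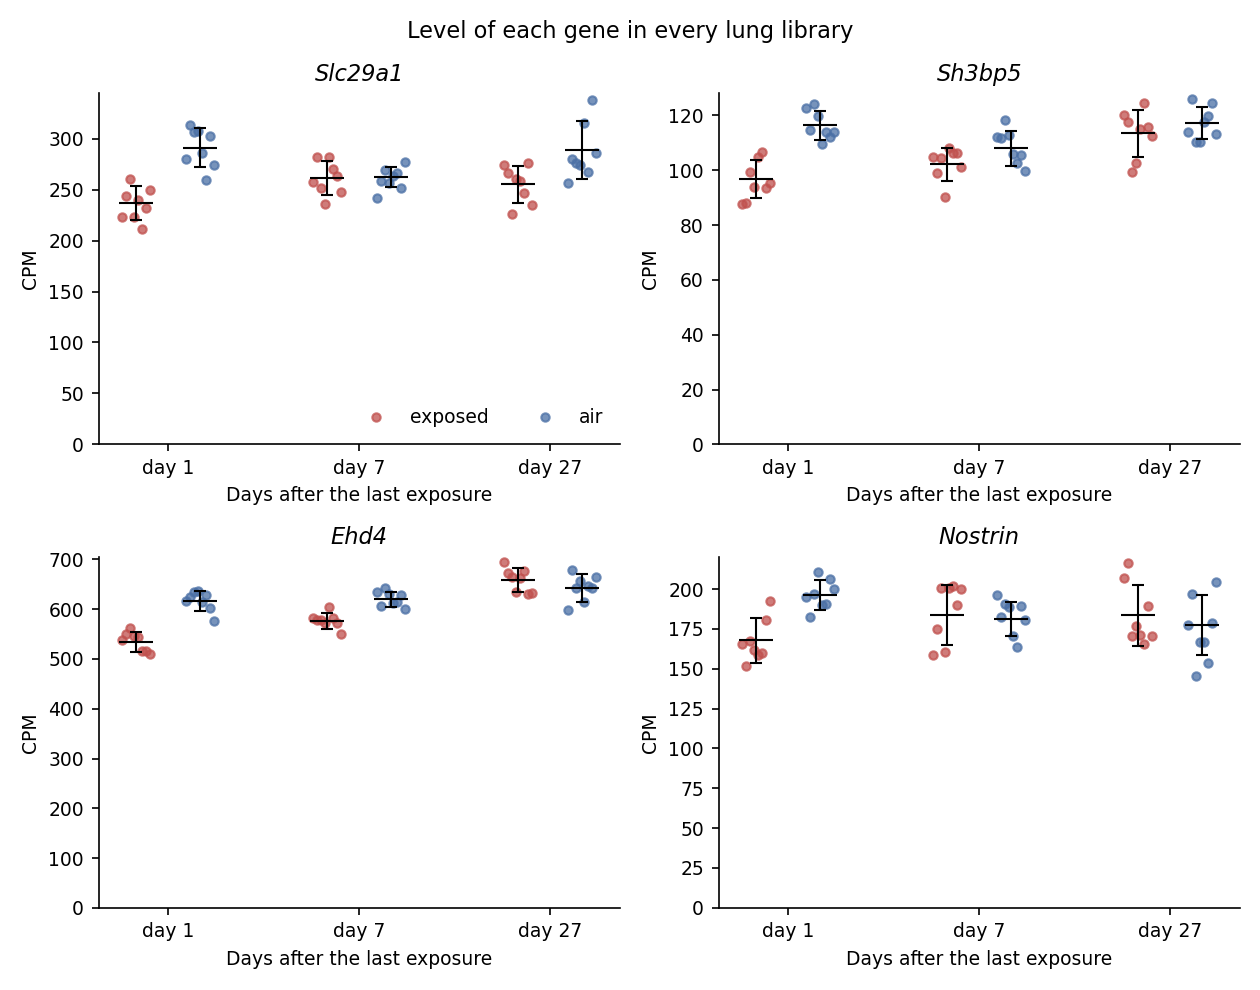
CPM of Slc29a1, Sh3bp5, Ehd4 and Nostrin (vertical axes, starting at 0) in each of the 48 libraries by days after the last exposure, with exposed lungs left of air lungs. Points are libraries, bars are the group mean ± SD with a close pair counted as 1, and at day 1 every exposed library of Ehd4 and Sh3bp5 lies below every air library, whereas all 4 genes overlap between groups at days 7 and 27.

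At day 7 none of the 4 genes passed the test, and the 4 no longer pointed the same way. Ehd4 and Sh3bp5 had negative fold changes, and Slc29a1 and Nostrin lay near 0. In that comparison edgeR called 0% of the 14259 genes tested, with 1208 at an unadjusted p under 0.05, and DESeq2 called 30.

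Slc29a1, the nucleoside transporter, ran from 236.0 to 282.4 CPM in exposed lungs at day 7 (median 260.6), against 242.2 to 276.8 CPM in air lungs (median 261.02). The groups overlapped along nearly their whole range, with 4 of 8 exposed libraries below the air mean. The log2 fold change was 0.0075 ± 0.040 (SE, edgeR adjusted p = 0.981, 95% interval -0.07 to 0.09), and its sign turned to -0.0020 with the close pairs of day 7 summed.

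Ehd4, the recycling ATPase, ran from 549 to 603 CPM in exposed lungs at day 7 (median 578), against 601 to 642 CPM in air lungs (median 621). Each of the 8 exposed libraries was under the air mean and 7 of 8 under every air library, so that the groups met at 1 exposed library. Means were 577 ± 16.1 CPM in exposed lungs and 619.5 ± 15.04 CPM in air lungs (SD, n = 7 each). The log2 fold change of -0.10 ± 0.026 (SE, 95% interval -0.15 to -0.05) had an unadjusted p of 0.000896 and an adjusted p of 0.305 by edgeR. DESeq2 called it (adjusted p = 0.00516). A non-overlapping lower exposed group, which Ehd4 missed by 1 library, occurred in 0.0351% of genes, and none of the 4 members showed it at day 7. The share of genes with 7 of 8 exposed libraries under every air library, as in Ehd4, was not counted.

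Nostrin, the eNOS trafficking protein, ran from 159 to 202 CPM in exposed lungs at day 7 (median 195), against 163 to 196 CPM in air lungs (median 185). Here 2 exposed libraries lay below every air library and others above them, so the exposed group spread more widely, with an SD of 18.9 CPM against 10.9 CPM in air lungs (n = 7 each). The log2 fold change was 0.03 ± 0.055 (SE, edgeR adjusted p = 0.927, 95% interval -0.08 to 0.14).

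Sh3bp5, the JNK docking protein, ran from 90.3 to 108 CPM in exposed lungs at day 7 (median 105), against 99.8 to 118 CPM in air lungs (median 109). Here 7 of 8 exposed libraries were under the air mean, the 8th lying level with it, and 2 were below every air library. The share of all genes with such a pattern was not counted. The log2 fold change was -0.08 ± 0.041 (SE, edgeR adjusted p = 0.609, 95% interval -0.16 to 0.0012). Among all genes tested at day 7, 15.2% had a lower fold change than Ehd4, 19.9% a lower one than Sh3bp5, 54.2% a lower one than Slc29a1 and 63.5% a lower one than Nostrin. At day 1 the same shares had been 4.90%, 2.98%, 2.26% and 3.99%, as the choice of genes would give.

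At day 27 none of the 4 passed either, in a comparison in which edgeR called 5.52% of the 14192 genes tested (310 higher and 473 lower in exposed lungs, and 3790 at an unadjusted p under 0.05). Slc29a1 was again at lower values in exposed lungs, while Ehd4 and Nostrin had fold changes above 0. That background rested on single libraries, since edgeR called 31 genes with the close air pair summed and 9 without exposed library 3.

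Slc29a1 ran from 226.2 to 276.7 CPM in exposed lungs at day 27 (median 259.7), against 256.3 to 338.2 CPM in air lungs (median 278.5). The exposed libraries were all under the air mean and 3 of them under every air library, a pattern whose share over all genes was not counted. The air group held the highest Slc29a1 value of all 48 libraries, 338.2 CPM in air library 7. Means were 255.6 ± 18.1 CPM in exposed lungs (SD, n = 8) and 289.05 ± 28.2 CPM in air lungs (SD, n = 7). The log2 fold change of -0.16 ± 0.057 (SE, 95% interval -0.28 to -0.05) had an unadjusted p of 0.0094 and an adjusted p of 0.0829 by edgeR. It passed with DESeq2 (adjusted p = 0.0454) and with all 48 libraries in one edgeR fit (adjusted p = 0.0193), whereas with 1 surrogate variable it was -0.09 ± 0.049 (edgeR adjusted p = 0.435). Leaving out 1 library at a time gave edgeR adjusted p of 0.0518 to 0.164.

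Sh3bp5 at day 27 ran from 99.4 to 124 CPM in exposed lungs (median 115), against 110 to 126 CPM in air lungs (median 116). The 2 lowest exposed libraries lay below every air library and the rest among them, and the log2 fold change was -0.04 ± 0.047 (SE, edgeR adjusted p = 0.585, 95% interval -0.14 to 0.05). Ehd4 ran from 630 to 695 CPM in exposed lungs (median 664), against 598 to 678 CPM in air lungs (median 645). No exposed library of Ehd4 lay below the lowest air library, and 3 of 8 lay below the air mean. Its log2 fold change was 0.04 ± 0.035 (SE, edgeR adjusted p = 0.517, 95% interval -0.03 to 0.11).

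Nostrin at day 27 ran from 166 to 217 CPM in exposed lungs (median 174), against 146 to 204 CPM in air lungs (median 172). Both its lowest and its highest value over all 48 libraries fell at this day, 146 CPM in air library 3 and 217 CPM in exposed library 2, and the groups overlapped along most of their range. The log2 fold change was 0.08 ± 0.072 (SE, edgeR adjusted p = 0.495, 95% interval -0.06 to 0.22). None of the 4 members had groups apart at day 27, against 0.225% of genes with every exposed library below every air library. Of all genes tested, 18.1% had a lower fold change than Slc29a1, 42.2% a lower one than Sh3bp5, 60.1% a lower one than Ehd4 and 68.6% a lower one than Nostrin.

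**Figure D2:**
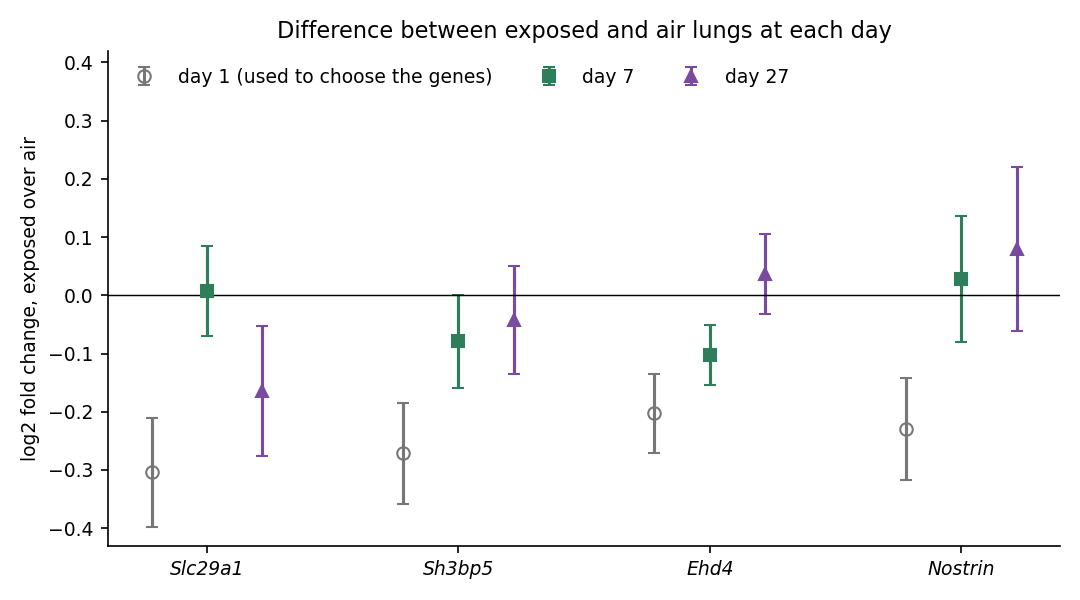
Log2 fold change of exposed over air lungs (vertical axis) for each gene at days 1, 7 and 27, with 95% intervals (1.96 SE, edgeR). Day 1, in open circles, was used to choose the genes, and of the 8 later values only Ehd4 at day 7 and Slc29a1 at day 27 have intervals that leave out 0, neither passing after adjustment over all genes.

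The change of the exposure effect between the later days was tested in one edgeR fit of all 48 libraries. It was 0.14 ± 0.039 for Ehd4 (day 27 minus day 7, SE, adjusted p = 0.127) and -0.17 ± 0.070 for Slc29a1 (adjusted p = 0.248) on the log2 scale. For Sh3bp5 it was 0.04 ± 0.062 and for Nostrin 0.05 ± 0.087, with an edgeR adjusted p of 0.803 for each. edgeR called 0.0202% of the 14852 genes in this contrast and none of the members, whereas DESeq2 called Ehd4 (0.15, adjusted p = 0.0123). Whether Ehd4 and Slc29a1 differed from each other in this was not tested.

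Within a treatment, day 27 was set against day 7 and 4 of 8 values of the members passed, 2 in exposed and 2 in air lungs. The day here is also the age of the animals and the table in which the counts were given, and these cannot be told apart. In exposed lungs Ehd4 was higher at day 27, at 659 ± 24.0 CPM (SD, n = 8), against 577 ± 16.1 CPM at day 7 (SD, n = 7), a log2 difference of 0.19 ± 0.028 (SE, edgeR adjusted p = 3.45e-06). Sh3bp5 was also higher in exposed lungs at day 27, at 113 ± 8.47 CPM, against 102 ± 6.05 CPM at day 7 (0.15 ± 0.044, edgeR adjusted p = 0.0237). In that contrast 12.1% of genes were called, and 2 of 4 members. Slc29a1 in exposed lungs had -0.03 ± 0.049 (edgeR adjusted p = 0.711, 95% interval -0.13 to 0.06).

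In air lungs Slc29a1 was higher at day 27, at 289.05 ± 28.2 CPM, against 262.2 ± 9.75 CPM at day 7 (SD, n = 7 each), a log2 difference of 0.14 ± 0.049 (SE, edgeR adjusted p = 0.0217). Sh3bp5 in air lungs stood at 117 ± 5.91 CPM at day 27, against 108 ± 6.36 CPM at day 7 (0.11 ± 0.044, edgeR adjusted p = 0.0470), and this call was lost under 4 of 6 alternatives. Here 39.7% of genes were called, so that 2 of 4 members is close to that background. Ehd4 in air lungs had 0.05 ± 0.028 (edgeR adjusted p = 0.151), and Nostrin had -0.02 ± 0.061 in exposed lungs and -0.07 ± 0.061 in air lungs (edgeR adjusted p = 0.881 in exposed and 0.381 in air).

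Between days 1 and 7, given as values because day 1 chose the genes, Slc29a1 differed by 0.15 in exposed lungs and by -0.16 in air lungs (day 7 minus day 1, log2). For Nostrin these differences were 0.15 in exposed and -0.10 in air lungs, and for Sh3bp5 0.09 in exposed and -0.10 in air lungs. For Ehd4 they were 0.11 in exposed and 0.0098 in air lungs. The genes were chosen for low exposed values against air at day 1. These differences are therefore not independent of that choice and are no finding.

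Endothelial markers were present in every group. Of 20 listed markers 19 had a row, none was at 0 in any group, and Cdh5, the junctional cadherin of endothelium, ran from 1071 to 1476 CPM over the 48 libraries. Their mean log2 CPM in exposed minus air lungs was -0.09 at day 1, -0.03 at day 7 and -0.04 at day 27. At day 1 all 19 were tested, none was called, 17 had fold changes below 0 and the median was -0.10, against 0.0019 over all genes. At day 7 none was called, 13 were below 0 and the median was -0.02. At day 27 Tie1 (-0.17 ± 0.040, edgeR adjusted p = 0.0292), an angiopoietin coreceptor, and Plvap (-0.20 ± 0.048, edgeR adjusted p = 0.0327), a protein of endothelial diaphragms, were lower in exposed lungs. At that day 5.52% of all genes were called, and whether these 2 calls held under the alternatives was not tested. Of the 19 markers 12 were below 0 and the median was -0.06, against -0.0081 over all genes.

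The summed CPM of the 19 endothelial markers ran from 7656 to 9046 in exposed and 8111 to 9130 in air lungs at day 1, from 8161 to 8529 in exposed and 8282 to 8850 in air lungs at day 7, and from 8175 to 9080 in exposed and 8272 to 9163 in air lungs at day 27. Of 9 markers of capillary subtypes none was called at any day, with medians of -0.13, 0.05 and -0.0069 at days 1, 7 and 27.

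The members were also expressed relative to the endothelial markers of the same library. Their day 1 values were used to choose them, so the day 1 differences here describe that choice. Slc29a1 minus the mean of the markers differed by -0.21 log2 units between exposed and air lungs at day 1, 0.03 at day 7 and -0.13 at day 27. The differences for Ehd4 were -0.12, -0.07 and 0.08 at days 1, 7 and 27, and those for Nostrin were -0.14, 0.05 and 0.09. Sh3bp5 had -0.18 at day 1, -0.05 at day 7 and -0.0056 at day 27. With the endothelial level as a covariate in the edgeR fit, the log2 fold changes at day 7 were 0.03 for Slc29a1, -0.10 for Ehd4, 0.07 for Nostrin and -0.05 for Sh3bp5. At day 27 they were -0.13 for Slc29a1, 0.06 for Ehd4, 0.13 for Nostrin and -0.02 for Sh3bp5, and no member was called at either day.

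**Figure D3:**
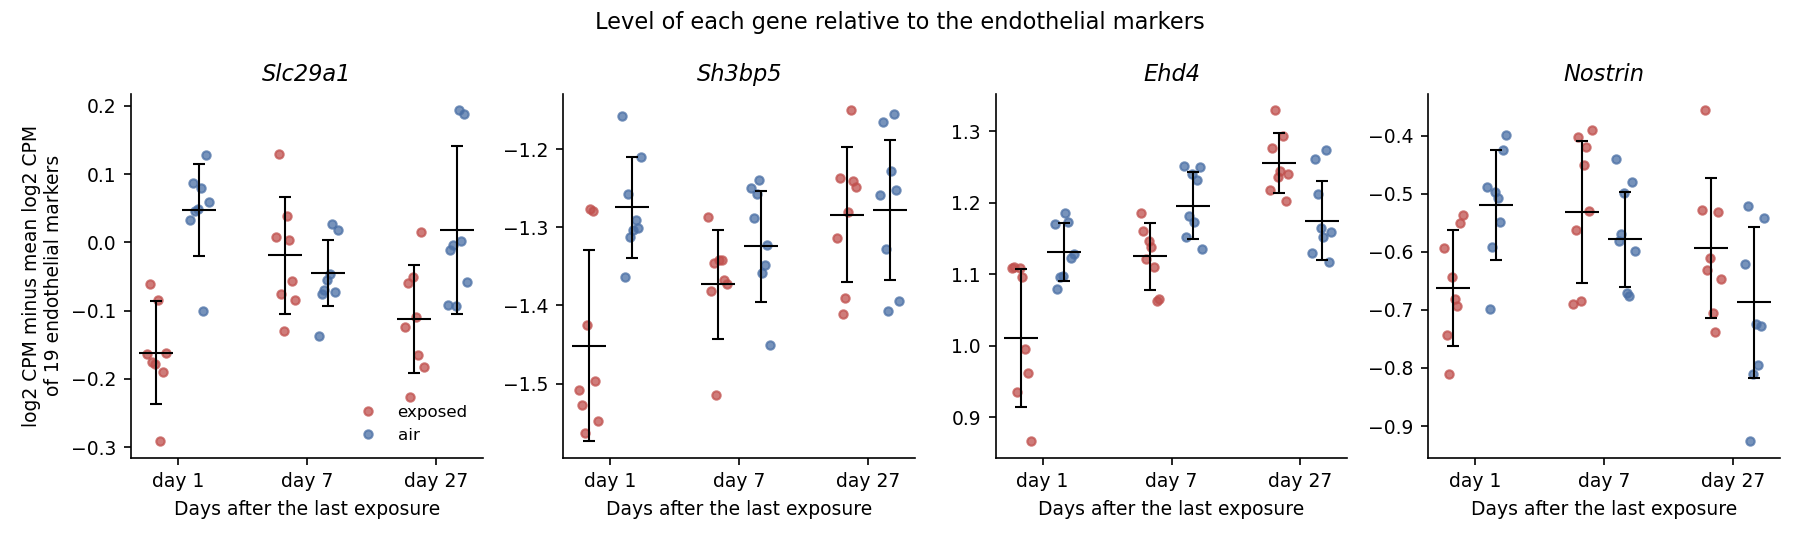
Log2 CPM of each gene minus the mean log2 CPM of 19 endothelial markers (vertical axes, scaled separately for each gene and not starting at 0), in each library by days after the last exposure, with exposed lungs left of air lungs and bars at the group mean ± SD. The exposed group of Slc29a1 averages -0.16 at day 1, the day used to choose the genes, against 0.05 in air lungs. At day 27 it averages -0.11, against 0.02 in air lungs.

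Of the markers of other cell types none was called at days 1 and 7. How much of the members' reads came from these cells was not measured, and correlations with these markers are given below. At day 1 the 7 cardiac muscle markers tested all had fold changes above 0 (median 0.55), with summed CPM of 40.5 to 387 in exposed and 33.4 to 372 in air lungs, which overlapped almost fully. Beside the endothelial median of -0.10 at day 1, airway markers had -0.22, neutrophil markers -0.20 and B cell markers -0.13. Red cell markers had -0.06, alveolar macrophage markers -0.02 and alveolar type 1 markers -0.0070. Medians above 0 were 0.07 for T cell, 0.05 for smooth muscle, 0.03 for fibroblast and 0.03 for alveolar type 2 markers. At day 7 the 7 neutrophil markers (median 0.43) and the 5 red cell markers (median 0.17) were all above 0, and the 8 alveolar type 2 markers all below 0 (median -0.09). At day 27 the 7 airway markers (median -0.32) and the 7 alveolar macrophage markers tested (median -0.13) were all below 0, as were 7 of 8 B cell markers (median -0.56) and 7 of 8 T cell markers (median -0.26). Called lower in exposed lungs at day 27 were Cav3 on the alveolar type 1 list (-0.49), Tppp3 of ciliated cells (-0.28), Pparg (-0.33) and Cidec (-0.68) on the macrophage list, Cd79a (-0.80) and Fcrla (-0.71) of B cells and Ccr7 of T cells (-0.57), and Pdgfra of fibroblasts (0.23) was called higher, with edgeR adjusted p of 0.0288 to 0.0456. These calls stand beside 5.52% of all genes called at day 27, and whether they held under the alternatives was not tested.

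The genes each member is known to work with were followed by lists chosen with earlier results of these data known. Of 20 genes of adenosine handling, 18, 16 and 17 were tested at days 1, 7 and 27 and none was called at any day, with medians of -0.0034, -0.01 and -0.01. Slc29a3, the lysosomal relative of ENT1, had log2 fold changes of 0.01, -0.09 and 0.10, and the plasma membrane relative Slc29a4 was tested at day 1 alone (0.06). Slc29a2, the other equilibrative transporter of the plasma membrane, had too few counts to be tested.

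Of 19 genes of endocytic recycling all were tested, and none was called at days 1 and 7. At day 27, 1 was higher in exposed lungs, the early endosome protein Rbsn (0.22 ± 0.061, edgeR adjusted p = 0.0412), and 1 was lower, the small GTPase Rab8a (-0.15 ± 0.037, edgeR adjusted p = 0.0348). Whether these calls held under the alternatives was not tested. The median of the list stayed at 0.0064, -0.0012 and 0.00020 over the 3 days. The relatives of Ehd4 had log2 fold changes of -0.06, -0.03 and -0.02 for Ehd1 and of -0.02, -0.0012 and -0.03 for Ehd2 at days 1, 7 and 27. Ehd3 had 0.05, 0.34 and 0.00020, with no call.

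Of 19 genes around eNOS and caveolae 16 were tested, and none was called at days 1 and 7. At day 27 Cav2, a caveolin (0.17 ± 0.047, edgeR adjusted p = 0.0433), and Wasl, the actin regulator N-WASP (0.19 ± 0.049, edgeR adjusted p = 0.0348), were higher in exposed lungs, and Cavin3, a caveolar coat protein (-0.27 ± 0.062, edgeR adjusted p = 0.0288), was lower. These calls too were not tried under the alternatives. The median of the list was 0.02, -0.0013 and 0.10 over the 3 days. Nos3 itself, the partner of Nostrin, had -0.20, 0.07 and 0.23 with edgeR adjusted p of 0.525, 0.816 and 0.120, and Cav1 had -0.01, 0.0016 and 0.0049. Of 13 other F-BAR proteins none was called at any day, with medians of 0.03, 0.02 and 0.14.

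Of 12 genes around SAB and JNK 11 were tested and none was called at any day, with medians of -0.01, 0.01 and 0.05. Sh3bp5l, the close relative of Sh3bp5, had -0.12, 0.04 and -0.05, and Rab11a had -0.05, 0.05 and 0.07 at days 1, 7 and 27. Across these 5 lists the calls at day 27, 5 of 76 genes tested, lay near the 5.52% of all genes called at that day.

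Whether the 4 genes varied together from library to library was measured with group means removed, so that the exposure effect itself did not enter. All 12 relations at days 7 and 27, 6 pairs of genes at each day, had r above 0, and none passed after Benjamini-Hochberg adjustment over the 12 (lowest permutation adjusted p 0.247 for Pearson and 0.192 for Spearman). How often other sets of 4 genes have all r above 0 was not counted. At day 7, over 14 libraries, Sh3bp5 and Nostrin had r = 0.57 (permutation p = 0.0357, adjusted 0.247) and rho = 0.62 (permutation p = 0.0184, adjusted 0.192). Without the 2 libraries farthest in Sh3bp5 the r was 0.47, and it was 0.58 within exposed and 0.60 within air lungs. With the endothelial level regressed out it was 0.33. For comparison, 2.69% of all genes had as high an r with Sh3bp5 and 2.40% with Nostrin.

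Sh3bp5 and Ehd4 at day 7 had r = 0.55 (permutation p = 0.0595, adjusted 0.247) and rho = 0.58 (permutation p = 0.0435, adjusted 0.192), with 0.41 within exposed and 0.71 within air lungs. Without the 2 farthest libraries the r was 0.53. With the endothelial level regressed out it was 0.50. The 3 relations of Slc29a1 at day 7 were 0.28 with Sh3bp5, 0.27 with Ehd4 and 0.15 with Nostrin. Of all genes, 21.4%, 21.7% and 33.1% had as high an r with Slc29a1. The relation of Slc29a1 with Sh3bp5 rested on the 2 libraries farthest in Slc29a1, without which r was 0.018, and it was 0.04 with the endothelial level regressed out. Within exposed lungs the 3 r of Slc29a1 were 0.62, 0.63 and 0.34, against -0.32, -0.43 and -0.42 within air lungs (7 libraries each), and the difference between the groups was not tested.

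At day 27, over 15 libraries, the highest relation was that of Slc29a1 and Sh3bp5, at r = 0.48 (permutation p = 0.0618, adjusted 0.247) and rho = 0.48 (permutation p = 0.0827, adjusted 0.248). It rested in part on the 2 libraries farthest in Slc29a1, without which r was 0.22. Of all genes, 13.2% had as high an r with Slc29a1 and 4.30% with Sh3bp5. Sh3bp5 and Ehd4 had r = 0.33, Sh3bp5 and Nostrin 0.31, Ehd4 and Nostrin 0.38, Slc29a1 and Nostrin 0.35 (rho = 0.54, permutation p = 0.0479, adjusted 0.192), and Slc29a1 and Ehd4 0.07. As high an r with the first gene was held by 12.2%, 14.1%, 7.78%, 23.7% and 47.2% of all genes, in that order. With the endothelial level regressed out, the r of Sh3bp5 with Ehd4 and with Nostrin at day 27 was 0.10 each, that with Slc29a1 0.34, and none of the 12 relations passed. At day 1, as a description over 15 libraries, r ran from -0.44 for Ehd4 and Nostrin to 0.40 for Slc29a1 and Ehd4.

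The members were also set against the mean of each of 13 marker lists, 104 relations over both days, of which 7 had an unadjusted Pearson permutation p under 0.05 and none passed adjustment (lowest adjusted p 0.527 for Pearson and 0.537 for Spearman). All 8 relations with the endothelial markers had r above 0, and 4 of the 7 were among them. At day 7 these r were 0.42 for Slc29a1, 0.60 for Sh3bp5, 0.27 for Ehd4 and 0.61 for Nostrin, and at day 27 they were 0.53 for Slc29a1, 0.41 for Sh3bp5, 0.63 for Ehd4 and 0.57 for Nostrin. Without the 2 libraries farthest on the marker axis 7 of the 8 stayed above 0, the exception being Ehd4 at day 7 at -0.30. Red cell markers also had r above 0 with each member at both days, except Ehd4 at day 27 (-0.07). The same held for alveolar macrophage markers, except with Nostrin at day 27 (-0.03). As none of these relations passed, calling the genes endothelial rests on what is known of them and not on these libraries.

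The 3 other relations with an unadjusted Pearson permutation p under 0.05 were Sh3bp5 with cardiac muscle markers at day 27 (r = 0.70, rho = 0.61), Nostrin with red cell markers at day 7 (r = 0.64, rho = 0.58) and Slc29a1 with alveolar type 2 markers at day 7 (r = 0.61, rho = 0.67). At the other day the same relations had r of -0.10, 0.45 and -0.04. The cardiac relation fell to 0.45 without the 2 farthest libraries, and was 0.85 within exposed and 0.30 within air lungs.

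**Figure D4:**
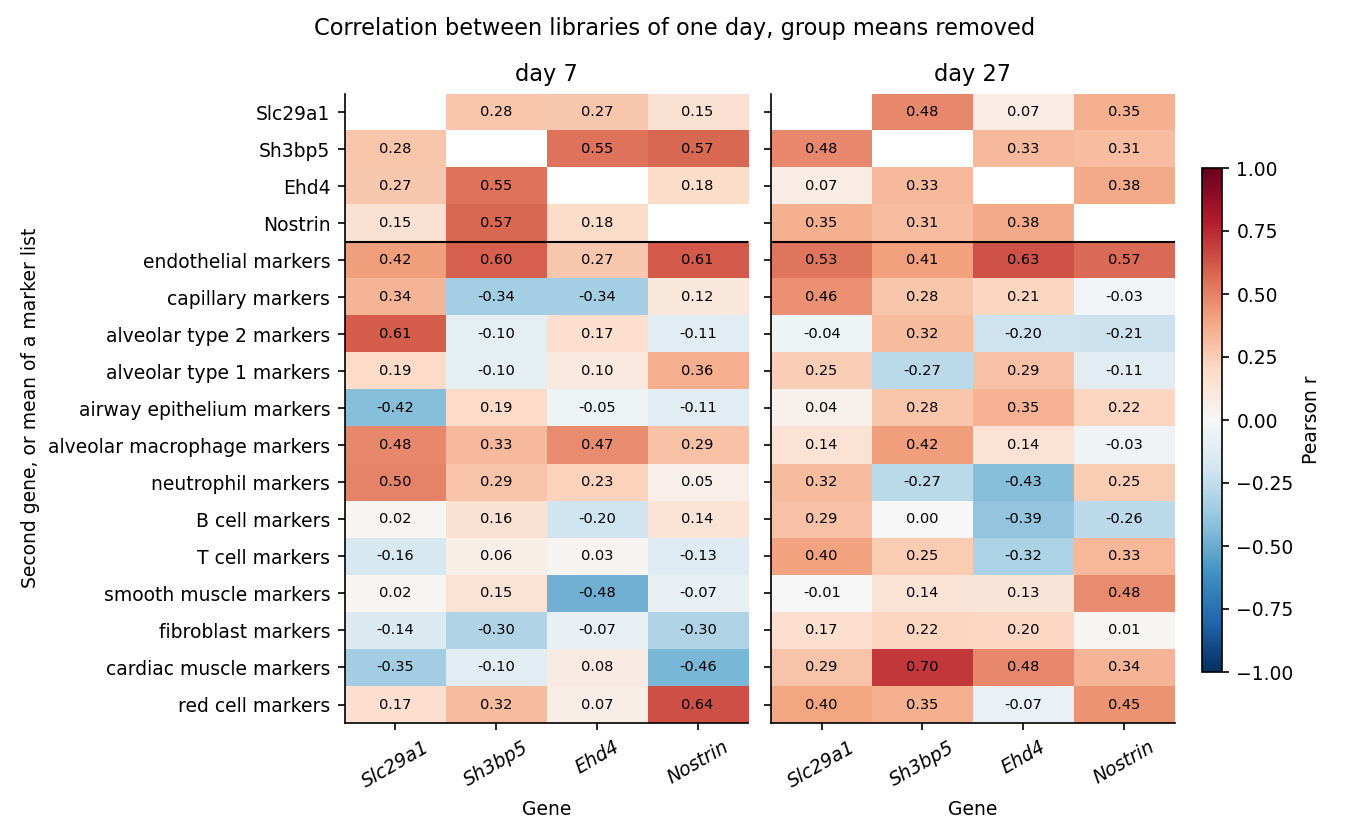
Pearson r between libraries of one day (colour and printed value, from -1 to 1), group means removed, of each gene (columns) with the other 3 genes and with the mean of each marker list (rows), at day 7 (14 libraries, left) and day 27 (15 libraries, right). The row of endothelial markers is above 0 in all 8 cells, from 0.27 to 0.63, and no cell passes after adjustment. The red cell row is also above 0 except for Ehd4 at day 27 (-0.07), and the alveolar macrophage row except for Nostrin at day 27 (-0.03).

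The genes whose levels ran closest to each member were ranked by r over the 29 libraries of days 7 and 27, among 9468 genes with a mean of at least 10 CPM, and have no test because they are the top of that ranking. Slc29a1 ran closest to Pnp, a purine nucleoside phosphorylase (r = 0.82), Mrpl22 (0.81), Kptn (0.79), Cdipt (0.75) and Atp5h (0.75). Ehd4 ran closest to Pla2g12a (0.72), Slc35b3 (0.71), Cdadc1 (0.65), Sike1 (0.63) and Stx11 (0.63). Nostrin ran closest to Slc11a1 (0.71), Psma3 (0.70), Ifi44 (0.70), Egfl7 (0.69) and Ppp1r2 (0.67), and Egfl7 is on the endothelial list. Sh3bp5 ran closest to Akr1cl (0.72), Kit (0.71), Arhgef15 (0.71), Kdr (0.70) and Prickle1 (0.70). Of these, Kdr, the main VEGF receptor, is on the endothelial list and Kit on the capillary list. No member was among the 5 genes closest to another member. The r with Sh3bp5 over these libraries was 0.42 for Nostrin, 0.40 for Slc29a1 and 0.40 for Ehd4, and that of Slc29a1 and Ehd4 was 0.13.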

How the data were processed

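Lung RNA of 48 rats was sequenced from stranded libraries of polyadenylated RNA, per the labels' protocols. The authors deposited expected counts per gene, which are estimates and can hold fractions of a read, without normalization, as 1 table per day of 32285 identifiers. Per the submitters' processing notes Salmon 1.10.1, STAR 2.6.1d and Trim Galore 0.6.7 were used, with the build Rnor_6.0. On average 5.58% of values per library were not whole (tolerance 1e-06), and all were rounded before testing. Totals of 9445687 to 14400337 counts set the precision. Groups came from the labels.

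Each day was fitted alone with edgeR 4.0.16 in R 4.3.3 (TMM factors, filterByExpr, robust quasi-likelihood F test, Benjamini-Hochberg adjustment over all genes tested, threshold 0.05). Contrasts between days came from 1 edgeR fit of all 48 libraries. SE is the log2 fold change divided by the square root of F, and the 95% interval is 1.96 SE. CPM used TMM factors over all libraries, and log2 CPM a prior count of 2. Correlations used deviations from group means with two-sided permutation p (100000 draws within groups). Nothing says whether libraries of a group came from animals of separate cages, so p-values measure the spread between libraries, each taken as an animal.

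The members and lists were chosen with earlier results of these data known. Named genes were the members, Dll4, the 5 genes nearest each member by r, a set of partners, and list genes with an adjusted p under 0.05, of which those of lists not shown in full are examples. Alternatives were RLE size factors, no filter, a filter at a mean of 1 CPM, limma-voom (limma 3.58.1), DESeq2 1.42.0, 1 surrogate variable (sva 3.50.0), the log2 total or the endothelial level as covariate, close pairs summed, all libraries in one fit, and each library left out. The edgeR steps were also run on simulated counts with known changes, drawn for independent libraries without close pairs, and the outcome is not given here.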

Additional observations from a re-analysis of the deposited data

How the results depend on the processing

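No paired analysis was possible because the libraries carry animal numbers that differ between the groups, so no number is shared. Under alternatives other than leaving out a library, 38 of 40 values of the members at day 7, and likewise 38 of 40 at day 27, kept their sign and their side of the threshold. Slc29a1 at day 7 turned to -0.0020 with the close pairs summed. With 1 surrogate variable Slc29a1 at day 27 was -0.09. DESeq2 called Ehd4 at day 7 (-0.10), Slc29a1 at day 27 (-0.16) and Ehd4 for day 27 minus day 7 of the effect (0.15), and one edgeR fit of all 48 libraries called Slc29a1 at day 27 (-0.17), so that 1 member was called in place of 0 at day 7 by DESeq2, and 1 at day 27 by DESeq2 and by that single fit. Leaving out 1 library at a time, the log2 fold change at day 7 ran from -0.012 to 0.028 for Slc29a1 (below 0 in 6 of 16 cases), -0.095 to -0.054 for Sh3bp5, -0.11 to -0.095 for Ehd4 and 0.0035 to 0.058 for Nostrin, and at day 27 from -0.19 to -0.13 for Slc29a1, -0.062 to -0.014 for Sh3bp5, 0.022 to 0.051 for Ehd4 and 0.042 to 0.12 for Nostrin, with 0 members called each time. The alternatives for day 27 minus day 7 within a treatment were chosen after seeing the data. The call of Sh3bp5 in air lungs was lost with RLE factors (0.10), without the filter (0.11), with DESeq2 (0.10) and with the close pairs summed (0.11), and the other members kept their calls. The r of Slc29a1 and Nostrin at day 7 was -0.14 with the endothelial level regressed out, and that of Slc29a1 and Ehd4 at day 27 was -0.41 with it regressed out and -0.0035 without TMM factors. Over all genes the calls at day 7 were 0, against 30 by DESeq2, 1 in one fit and up to 11 without 1 library. At day 27 the 783 calls became 474 without the filter, 1675 by DESeq2, 57 with 1 surrogate variable, 13 with the endothelial covariate, 31 with the pair summed, 2227 in one fit, and 9 (without exposed library 3) to 1926 (without air library 2) without 1 library, moving up or down in 13 of 16 cases. The cause of these shifts was not tested.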
